A study of Mus musculus with 7 samples.

Results

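The Cyp2c genes are a family of cytochrome P450 genes that the mouse liver expresses strongly. Of the 32451 genes on the array, the 9 described here are Cyp2c29, Cyp2c37, Cyp2c38, Cyp2c39, Cyp2c44, Cyp2c50, Cyp2c54, Cyp2c55 and Cyp2c70. They were chosen by name and found through the RefSeq accession of each probe, which gave 13 probes. RefSeq now lists Cyp2c44 under the symbol Cyp2c23. Total RNA came from livers of male C57/BJ mice aged 26 weeks. From the age of 6 weeks these mice had eaten either a high-fat diet (HFD) from ResearchDiets or a control chow from Provimi Kliba, for 20 weeks. There were 4 chow and 3 HFD samples, each on its own 1-colour Agilent array. Neither group carried a named allele or received a drug. The labels do not say which animal each sample came from, so the p-values measure the spread between these samples.

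Cyp2c enzymes sit in the endoplasmic reticulum of hepatocytes and receive electrons from cytochrome P450 reductase. They oxidise many drugs, and several also convert arachidonic and linoleic acid to epoxides or hydroxy acids that act as lipid signals. Hepatic Cyp2c transcription is known to depend on HNF4A and on the xenobiotic receptors CAR (Nr1i3) and PXR (Nr1i2).

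The genes lie on chromosome 19, all but Cyp2c44 in 1 cluster. In RefSeq's assembly GRCm38.p6 the members follow each other as Cyp2c55, Cyp2c29, Cyp2c39, Cyp2c38, Cyp2c37, Cyp2c54, Cyp2c50 and Cyp2c70, with other Cyp2c genes in between, and Cyp2c44 follows apart from them. The members in the deposited value table were Cyp2c55, Cyp2c29, Cyp2c38 and Cyp2c70, so they include the first member of this order and were not neighbours as a block. RefSeq's promoter table had entries for 7 of the 9 genes. The stretches below, 150 bases each, lie directly upstream of the outermost RefSeq transcript start of the 4 genes in the table and of Cyp2c37, a paralog outside the table. They are shown because a short motif, CAAAGT, the core of an HNF4A-type site, recurs in all of them but that of Cyp2c55. The motif is in capitals.
Cyp2c29, chr19:39286894-39287043, plus strand: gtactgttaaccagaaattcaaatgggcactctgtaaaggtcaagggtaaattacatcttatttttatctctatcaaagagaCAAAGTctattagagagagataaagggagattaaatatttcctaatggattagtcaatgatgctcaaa
Cyp2c38, chr19:39463104-39463253, minus strand: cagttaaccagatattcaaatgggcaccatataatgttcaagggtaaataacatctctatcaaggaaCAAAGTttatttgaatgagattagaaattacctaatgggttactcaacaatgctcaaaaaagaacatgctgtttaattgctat
Cyp2c70, chr19:40187287-40187436, minus strand: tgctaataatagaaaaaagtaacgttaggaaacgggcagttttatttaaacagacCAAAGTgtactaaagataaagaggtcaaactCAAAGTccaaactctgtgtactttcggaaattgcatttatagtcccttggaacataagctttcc
Cyp2c55, chr19:39006790-39006939, plus strand: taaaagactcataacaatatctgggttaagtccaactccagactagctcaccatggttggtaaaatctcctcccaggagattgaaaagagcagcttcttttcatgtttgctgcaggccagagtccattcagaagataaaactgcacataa
Cyp2c37, chr19:39992274-39992423, plus strand: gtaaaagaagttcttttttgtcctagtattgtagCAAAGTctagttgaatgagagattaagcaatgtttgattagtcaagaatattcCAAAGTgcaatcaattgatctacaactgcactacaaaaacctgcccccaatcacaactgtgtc

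In the 250 bases before the promoter table's start, CAAAGT on either strand was present in 6 of the 7 genes, Cyp2c55 being the exception, and in 12.6% of all 32851 RefSeq promoters. Positions are counted from the start that the promoter table uses. The printed stretches of Cyp2c29, Cyp2c38 and Cyp2c55 end 41, 28 and 79 bases short of it, where another RefSeq transcript begins further upstream, and those of Cyp2c70 and Cyp2c37 end at it. CAAAGT began 109 and 45 bases upstream of the promoter table's start in Cyp2c29, 111 in Cyp2c38, and 95 and 64 in Cyp2c70. The match at 45 in Cyp2c29 is not wholly inside the printed stretch. AGGTCA, the half-site of many nuclear receptors, was in 3 of the 7 genes (Cyp2c29, Cyp2c39 and Cyp2c70) and in 14.02% of all promoters. The TATA box letters TATAAA were in 4 of the 7 and in 12.4% of all promoters. All were searched on both strands. AGGTCA and CAAAGT can share the letters CA, but no matches overlapped in these genes. The motifs were chosen after the sequences had been read. The genes are paralogs and their promoters are not independent. Over the 250 bases, Cyp2c37 and Cyp2c50 were 84.3% identical and Cyp2c29 and Cyp2c38 68.8%, against 51.2% for Cyp2c29 and Cyp2c70. A match describes letters and does not show that a factor binds.

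The deposited data hold scanner files for 7 arrays and a table of log2 values for 1615 probes. All 13 Cyp2c probes stood well above background on each of the 3 HFD arrays, as did all 20 measured hepatocyte markers. Across probes, the HFD scanner signals matched the HFD columns (Pearson r of at least 0.99991). For the scanner files labelled chow this r was 0.580 to 0.589, and 7 of the 20 hepatocyte markers and 4 of the 9 Cyp2c genes did not rise well above background in any such file. The diet comparison therefore used the table, and genes outside it have HFD levels only. For the chow columns no scanner signal was at hand to check their scale. Between 56.0% and 66.0% of probes on the HFD arrays stood well above background. HFD replicate 1 had a negative control signal of 46.9, outside the scanner software's accepted range, against 29.9 and 30.8 on the other HFD arrays. The HFD arrays were scanned on the same day, while no scan day is known for the chow values, so scan day and diet cannot be told apart.

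The first question was which Cyp2c genes differed between the diets. Cyp2c38, Cyp2c55 and Cyp2c29 were 2.26-fold to 2.92-fold lower in HFD liver and passed the test, and Cyp2c70 was 2.98-fold lower and did not pass. Of the 9 genes, 3 passed as lower and 0 as higher at an adjusted p under 0.05 in limma, a linear model with moderated variances, after Benjamini-Hochberg adjustment across the whole array. Among all genes, 0.810% passed as lower, 1.0% as higher and 1.81% in either direction. At an unadjusted p under 0.05, 4 were lower and 0 higher. These are all 4 genes that the deposited table listed, and the way it was chosen favours such p-values. The table held 4 of the 9 genes and 4.59% of all genes. At none of its 1615 probes did chow and HFD overlap, so it had been chosen by this same contrast and the p-values are not independent evidence. Of all genes, 2.12% were listed there and lower. Nothing can be said of diet for the other 5 genes. The 4 genes had a median HFD minus chow difference of -1.42 on the log2 scale, against -0.84 over the 687 genes of the table that were lower. In RNA of whole liver, fewer cells of a type and less RNA per cell cannot be told apart.

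**Figure D1:**
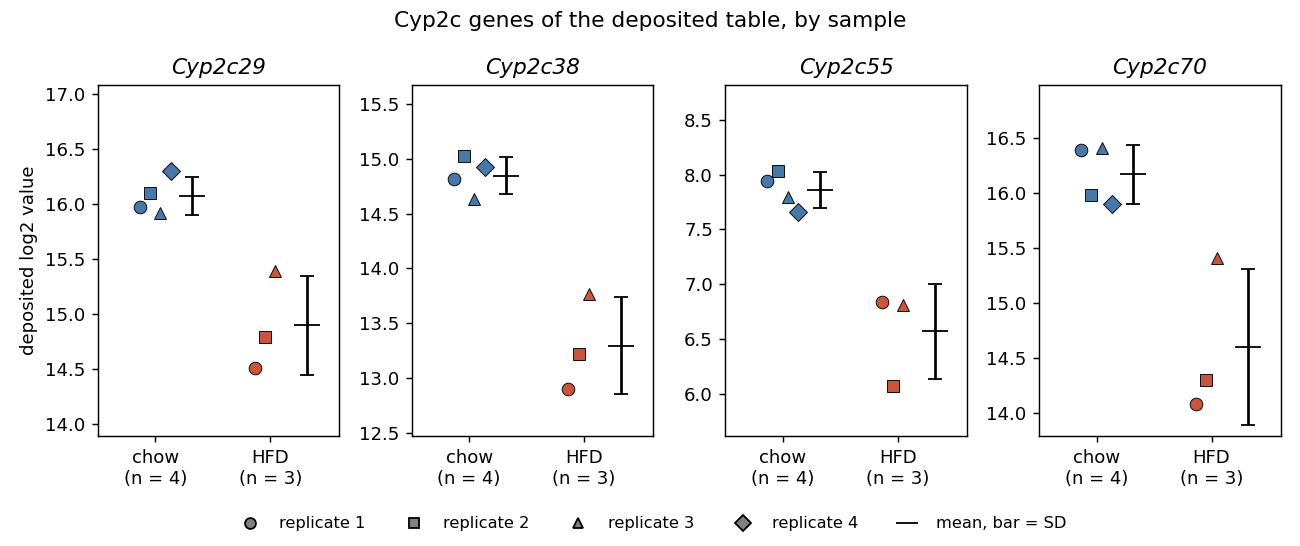
Deposited log2 values of Cyp2c29, Cyp2c38, Cyp2c55 and Cyp2c70 in 4 chow (blue) and 3 HFD (red) samples, with a marker shape per replicate number and the mean ± SD beside the points. All HFD samples lie below all chow samples, and HFD replicate 3 (red triangle) is the nearest to chow for Cyp2c29, Cyp2c38 and Cyp2c70.

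Cyp2c38 makes epoxides from arachidonic acid. Its log2 values were 14.81, 15.02, 14.63 and 14.92 in chow replicates 1 to 4 and 12.90, 13.22 and 13.77 in HFD replicates 1 to 3. The groups did not overlap, and HFD replicate 3 lay nearest to chow. Chow averaged 14.85 ± 0.17 (SD, n = 4) and HFD 13.30 ± 0.44 (SD, n = 3). HFD minus chow was -1.55 (SE 0.21), or 2.92-fold lower, at an adjusted p of 0.0292 by limma.

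Cyp2c55 is best known from the intestine and is inducible in liver. Its values were 7.95, 8.04, 7.79 and 7.66 in chow and 6.84, 6.08 and 6.81 in HFD. For this gene it was HFD replicate 2 that lay lowest, while HFD replicates 1 and 3 were close to each other. The chow samples averaged 7.86 ± 0.17 (SD, n = 4) and the HFD samples 6.57 ± 0.43 (SD, n = 3). The 2.43-fold decrease (log2 -1.28, SE 0.21) passed limma at an adjusted p of 0.0392.

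Cyp2c29 is an abundant hepatic arachidonic acid epoxygenase and a classical target of CAR. It had values of 15.97, 16.10, 15.92 and 16.30 in chow and 14.51, 14.79 and 15.39 in HFD. The HFD samples ranged over 0.88, wider than the 0.38 of chow, without reaching the chow values. The means were 16.07 ± 0.17 (SD, n = 4) for chow and, for HFD, 14.90 ± 0.45 (SD, n = 3). This 2.26-fold decrease (log2 -1.18, SE 0.22) had an adjusted p of 0.0497 by limma. This call was at the threshold and was lost in a fit per probe, at an adjusted p of 0.0538.

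Cyp2c70 makes muricholic acids, the hydrophilic bile acids typical of mice. Its values were 16.39, 15.98, 16.41 and 15.90 in chow and 14.08, 14.30 and 15.41 in HFD. Relative to the chow mean, HFD replicates 1 and 2 were 4.26-fold and 3.66-fold lower and HFD replicate 3 was 1.69-fold lower. Chow averaged 16.17 ± 0.27 (SD, n = 4) against 14.60 ± 0.71 (SD, n = 3) for HFD, a log2 difference of -1.57 with an SE of 0.33 that did not pass (adjusted p = 0.0638 in limma).

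HFD replicate 3 decided the call of Cyp2c70. Without HFD replicate 3, Cyp2c70 was 3.94-fold lower (adjusted p = 0.0237 in limma). Cyp2c55 then no longer passed (adjusted p = 0.0584 in limma), so that 3 genes were called again. Without any single one of the other 6 samples, 0 of the 4 genes passed in limma. Over all gene lists described below, 11 genes passed with all samples and 0 to 2 in these 6 fits. Calls were thus lost beyond the Cyp2c genes too. All 4 Cyp2c genes still had an unadjusted p under 0.05, which the selection of the table favours. The adjusted p-values over all 7 such fits were 0.0199 to 0.130 for Cyp2c38, 0.0584 to 0.110 for Cyp2c55, 0.0263 to 0.197 for Cyp2c29 and 0.0237 to 0.256 for Cyp2c70. An exact permutation test (two-sided) gave p = 0.0571 for each gene, the smallest that 4 against 3 samples allow.

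Differences among the 4 genes in the size of the diet effect were compared within samples. In 6 pairs, the exact permutation test (two-sided) gave p of at least 0.0571, or 0.343 after Benjamini-Hochberg adjustment. Cyp2c29 minus Cyp2c38 was 1.08 to 1.38 in chow and 1.57 to 1.62 in HFD on the log2 scale, so the log2 difference between diets was smaller for Cyp2c29 by 0.37. This was the only one of the 6 pairs whose groups did not overlap. Its p of 0.0571 in the exact permutation test is the smallest that 4 against 3 samples allow, so the test could not have passed and does not say whether these genes differ.

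Cyp2c38 was represented by 2 probes, and these went apart on the HFD arrays. Relative to the 75th percentile of each array, the probe in the table had log2 levels of 3.17, 3.59 and 4.16 in HFD replicates 1, 2 and 3. The second probe had -2.06, -1.90 and -2.89. The first was highest in HFD replicate 3 and the second lowest there. The first probe followed that of Cyp2c29 closely, at 4.74, 5.15 and 5.75. The deposited files do not give the probes' sequences. Whether a Cyp2c38 probe also binds Cyp2c29 or another paralog was not tested. The change reported for Cyp2c38 was measured at 1 of its 2 probes. The second was not in the table and has no diet comparison. Near-identical paralogs make such cross-hybridisation possible for any gene described here.

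The 5 genes outside the table have HFD levels only, given on the same log2 scale relative to each array's 75th percentile. Levels of different probes are not comparable with each other. Cyp2c50 and Cyp2c54 make epoxides of arachidonic and linoleic acid. Cyp2c50 had 5.04, 5.90 and 6.32 in HFD replicates 1, 2 and 3. The brightest of the 3 Cyp2c54 probes had 4.42, 5.35 and 5.82, and the remaining probes had 2.36, 2.96 and 3.71, and -0.46, 0.56 and 1.39. All 4 of these probes were lowest in HFD replicate 1 and highest in HFD replicate 3.

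Cyp2c37, an enzyme that forms hydroxy acids from arachidonic acid, had 3.48, 4.37 and 4.63 on one probe and 1.10, 1.67 and 2.18 on its second probe. Cyp2c39, a retinoic acid hydroxylase, had 2.02, 2.74 and 3.095. Cyp2c44, an epoxygenase gene that lies apart from the main cluster, had 3.78, 4.46 and 5.05. These genes kept the same order of samples as Cyp2c50 and Cyp2c54.

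**Figure D2:**
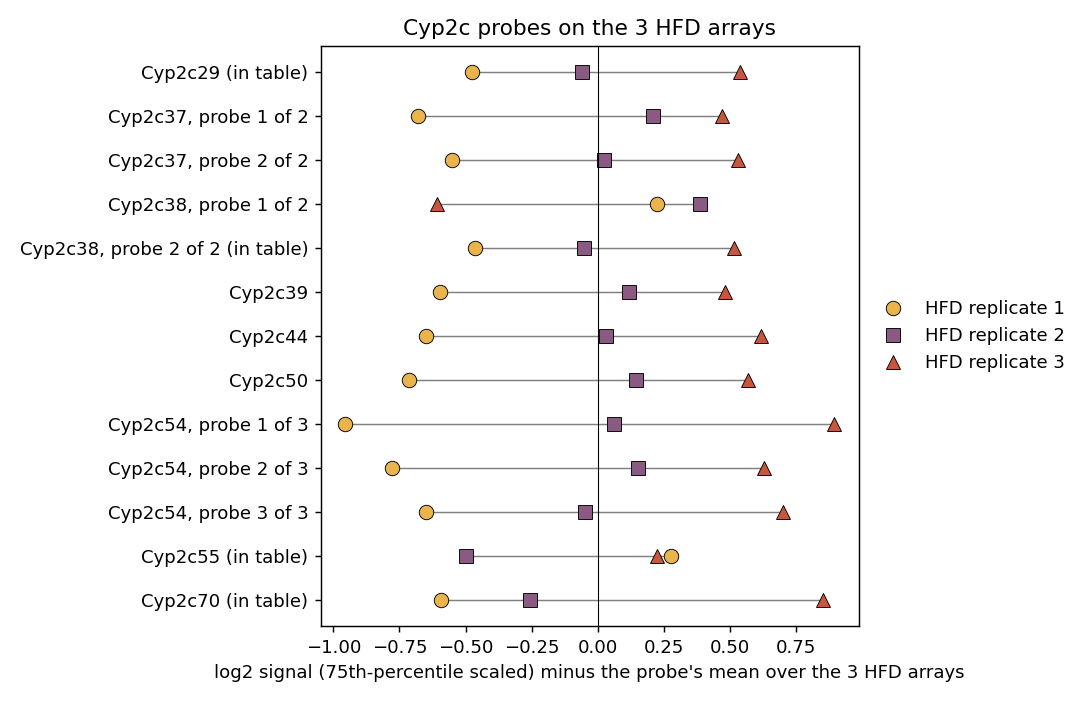
Log2 signal of each of the 13 Cyp2c probes on the 3 HFD arrays, scaled to the array's 75th percentile and shown as the difference from that probe's own mean over the arrays. In 11 probes HFD replicate 1 (circle) is lowest and HFD replicate 3 (triangle) highest, and 1 Cyp2c38 probe and the Cyp2c55 probe differ.

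The HFD arrays thus differed among themselves in most Cyp2c probes. Each sample had its own array, so differences between livers and between arrays cannot be told apart. HFD replicate 1 was also the array whose negative control lay outside the accepted range. In 11 of 13 probes the signal was lowest in HFD replicate 1 and highest in HFD replicate 3, and the exceptions were Cyp2c55 and the second Cyp2c38 probe. Of the 21651 probes well above background on the 3 HFD arrays, 24.4% had this order. HFD replicate 3 exceeded the mean of the other HFD arrays by a median of 0.80 (log2) over the Cyp2c probes and by 0.04 over all these probes. The spread over the HFD arrays, from the lowest to the highest, was 0.77 to 1.85 for the Cyp2c probes, with a median of 1.15, against a median of 0.33 over all. Probes of paralogs may share transcripts and probes of 1 gene share their target, so they are not replicates, and no test was made with 3 arrays of 1 group.

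**Figure D3:**
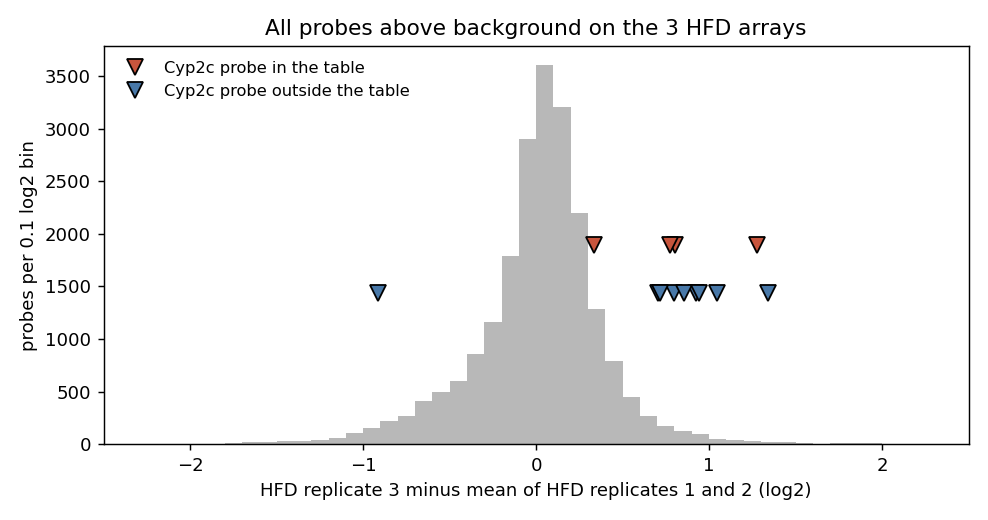
Histogram of HFD replicate 3 minus the mean of HFD replicates 1 and 2 (log2, 75th-percentile scaled) for the 21651 probes well above background on the 3 HFD arrays. Triangles mark the 13 Cyp2c probes at arbitrary height, red for those in the table, and 12 of them lie to the right of 0.

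Summed levels of cell markers also differed between the HFD arrays. Each sum adds linear levels of 1 probe per gene, so the brightest probes weigh most. Spp1 is in both the macrophage and the cholangiocyte list, so these sums are not separate. The sums do not measure cell numbers. The summed scaled level of 20 hepatocyte markers was 5816 in HFD replicate 1, 8263 in replicate 2 and 8075 in replicate 3. The sum of 21 macrophage markers was 178 in HFD replicate 1 and 89.2 and 83.8 in the others, that of 14 stellate cell markers 119, 111 and 87.7, and that of 10 cholangiocyte markers 9.75, 4.87 and 2.95. The sum of 15 lymphocyte markers was lowest in HFD replicate 1, at 13.8, against 20.3 and 20.0, and that of 12 endothelial markers was 49.6, 57.2 and 47.1. All 21 macrophage and 14 stellate markers stood well above background on each HFD array. This held for only 7 of the 10 cholangiocyte and 11 of the 15 lymphocyte markers. In each of these 2 lists 1 marker was above background on none of the HFD arrays. In the diet comparison 3 of 20 hepatocyte markers were in the table, all with lower values, and 1 passed (Serpina1a, 1.43-fold). Of all genes, 4.59% were in the table, 2.12% were listed there and lower, and 0.810% passed as lower. Cps1 had a log2 difference of -1.36 (limma adjusted p = 0.0531) and the fibrinogen gene Fga, named after its values were seen, one of -1.42 (limma adjusted p = 0.0519). The median of these 3 markers was -1.36, the value of Cps1, while Serpina1a had -0.52. The table was chosen by the diet contrast, so this median does not describe the hepatocyte markers outside it. It cannot be set against the median of the Cyp2c genes. Of the 21 macrophage markers 3 were in the table, and all 3 passed as higher, beside 1.0% of all genes. Itgam was 1.75-fold higher, and the chemokine receptor gene Ccr2 5.09-fold (limma adjusted p = 0.0323), with 1 of its 4 chow values below the highest detection floor of the HFD arrays. Gpnmb had 8.64, 7.84 and 5.95 in HFD replicates 1, 2 and 3 (limma adjusted p = 0.0253), and all 4 chow values lay below that floor, so no fold is given. The 4 stellate markers in the table (Col3a1, Dcn, Col1a2 and Lum) all had higher values in HFD and none passed, at adjusted p of 0.0542 to 0.0831 in limma. Their part in the Cyp2c values was not tested. Among the 687 lower genes of the table, HFD replicate 3 was the HFD sample nearest to chow in 65.8%. HFD replicate 3 was nearest for 3 of the 4 Cyp2c genes.

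The patterns most like each Cyp2c gene were ranked by Pearson's r over the 7 columns, among 1166 other named genes of the table. These r values are descriptions, since the selection of the table makes most genes of 1 direction correlate. Cyp2c29 was most like Skint7 (r = 0.988), Cyp2c38 (r = 0.987) and Dcun1d1 (r = 0.986). Cyp2c38 was most like the serpin gene Serpina1e (r = 0.991), Sec63, a subunit of the endoplasmic reticulum translocon (r = 0.990), and the nucleotide sugar transporter Slc35a1 (r = 0.989). Cyp2c55 was most like AI661453 (r = 0.994), Asap3 (r = 0.992) and Skap2 (r = 0.987), of which Asap3 (2.09-fold, adjusted p = 0.0300) and Skap2 (1.57-fold, adjusted p = 0.0378) passed as lower in limma. Cyp2c70 was most like Adgrf1 (r = 0.993), which was well above background on 1 of the 3 HFD arrays, the interleukin receptor chain Il13ra1 (r = 0.992) and Gramd1c (r = 0.991).

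Genes that work with or control the Cyp2c enzymes were mostly not in the table, which held 4.59% of all genes. Absence from it says nothing of diet. Among all genes, 0.810% passed as lower and 1.0% as higher. Of 15 electron transfer and heme synthesis genes, 1 was listed: Pgrmc2, a heme-binding membrane protein, was 1.57-fold higher in HFD and passed (adjusted p = 0.0390 in limma). Of 22 transcription factors and receptors, 1 was listed: Foxa3, a forkhead factor of hepatocytes, fell from 10.76 ± 0.16 (SD, n = 4) to 9.90 ± 0.17 (SD, n = 3), 1.82-fold (adjusted p = 0.0339 in limma). Nr1i2, Nr1i3 and Hnf4a were on the array and not in the table. Of 18 epoxide and eicosanoid genes, 1 was listed: Cyp2j6, an arachidonic acid epoxygenase, had a log2 difference of 0.49, short of the threshold (limma adjusted p = 0.0709).

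Of 27 measured genes that respond to CAR or PXR, 6 were in the table, with 2 passing as lower and 1 as higher. Of all genes, 4.59% were in the table, 0.810% passed as lower and 1.0% as higher. The median difference of the 6 was -0.16 on the log2 scale, against 0.44 over all 1488 genes of the table. The noncoding RNA gene Meg3 was 4.03-fold and the carboxylesterase gene Ces2a 2.46-fold lower, and the glutathione transferase gene Gstm2 was 2.42-fold higher (adjusted p = 0.0253, 0.0354 and 0.0465 in limma). Ces2a averaged 15.53 ± 0.10 (SD, n = 4) in chow against 14.24 ± 0.44 (SD, n = 3) with HFD. These members went in both directions.

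**Figure D4:**
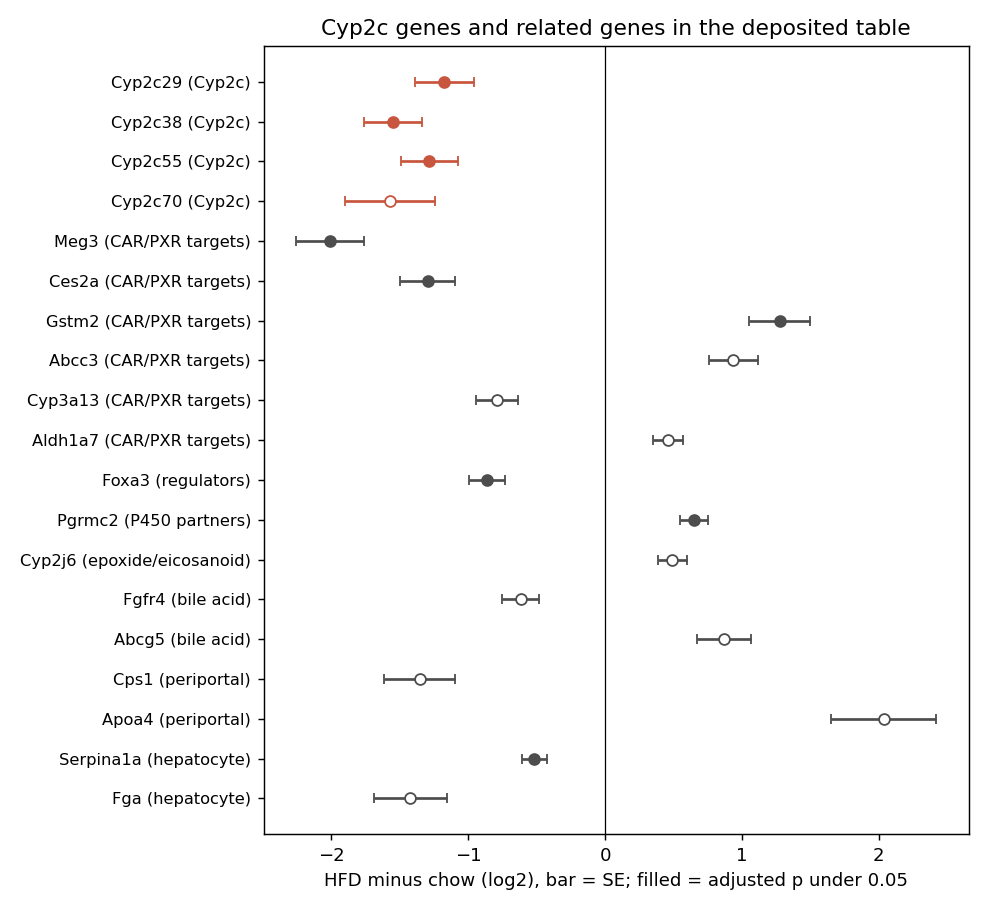
HFD minus chow differences (log2) with their SE for the 4 Cyp2c genes of the table (red) and for genes of 7 related lists in the table, where filled points passed at an adjusted p under 0.05. The 4 Cyp2c genes lie between -1.57 and -1.18, while the related genes lie on both sides of 0.

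Cyp2c70 acts in bile acid synthesis, and of 23 measured bile acid genes 2 were in the table, beside 4.59% of all genes. Fgfr4, the receptor for the ileal hormone that represses this synthesis, had a log2 difference of -0.62 (adjusted p = 0.0728 in limma), and the sterol transporter gene Abcg5 one of 0.87 (adjusted p = 0.0782 in limma). Neither passed. Several Cyp2c genes are expressed mainly around the central vein, so markers of the liver zones were read beside them. Of 20 pericentral genes 4 were in the table, with 2 passing as higher and 0 as lower. Of all genes, 1.0% passed as higher and 0.810% as lower. Glul, glutamine synthetase, was 1.85-fold higher (adjusted p = 0.0218 in limma). The vasopressin receptor gene Avpr1a, named after its values were seen, had the list's largest difference in the table, -1.92 on the log2 scale, and did not pass (limma adjusted p = 0.0611). Lect2, also named afterwards, had a difference of 0.64 (limma adjusted p = 0.0719). Of 19 periportal genes 2 were in the table and neither passed: Cps1, of the urea cycle, had a log2 difference of -1.36 and Apoa4 one of 2.04.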

How the data were processed

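Total RNA of 4 chow and 3 HFD livers was labelled with Cy3 and hybridised to 1-colour Agilent arrays, per the labels' protocols. The authors deposited scanner files with spot intensity values, background-subtracted by Feature Extraction (10.7.3.1 per the file headers, 9.1 per the submitters' processing notes). They also deposited a table of log2 values, whose normalization and probe selection the labels do not state. Of 39429 probes, 27234 were named through RefSeq accessions (GRCm38.p6, names only). Control and outlier-flagged spots were left out and spots of a probe averaged, and no spot was saturated. Each gene took its brightest probe in the table.

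The diet comparison used limma 3.58.1 in R 4.3.3 on the table, with no batch term. Variances were moderated toward a prior of 0.0363 with 2.14 degrees of freedom, taken from the spread of 19494 genes detected on 2 or more HFD arrays. Genes outside the table had a p of 1, so adjustment covered 32451 genes. HFD levels are log2 signals minus each array's 75th percentile. The fit was tested on simulated data. Alternatives were other adjustments, priors, floors, scalings and probe rules, samples left out, a replicate block and a permutation test. Members, lists and design were chosen with earlier results of these data known. Named genes were all members, up to 4 passing genes per list or else up to 2 in the table, and the 3 genes most like each member; 1 passing list gene is not reported here. All 9 members were measured and none was filtered out. The number of arrays limits the precision.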

Additional observations from a re-analysis of the deposited data

How the results depend on the processing

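All 4 Cyp2c genes of the table were lower in HFD under each of the 16 alternative fits. The groups did not overlap at any probe of the table, so a fit that keeps the values could not reverse this direction. The count of 3 genes passing in limma was 0 with a replicate block and 0 over replicates 1 to 3 with no block, which both drop chow replicate 4, and 0 in the exact permutation test, which cannot reach the threshold. It ranged from 0 to 3 when 1 sample was left out. All 4 genes had an unadjusted p under 0.05 in each of these limma fits, which the selection of the table favours. Deviations of same-numbered samples from their group means correlated at -0.10, 0.14 and 0.03, and not every sample correlated best with its own number. These r values come from genes chosen by the diet contrast and cannot decide whether same-numbered samples were handled together. Raising low values to the detection floor also ended the call of Cyp2c29 (adjusted p = 0.0523), so that 2 genes passed, as in the fit per probe. All 4 genes passed with the table's own prior (Cyp2c70 adjusted p = 0.0446) and with adjustment over the table alone (Cyp2c70 adjusted p = 0.0029). Over all lists, 11 genes passed, against 27 with adjustment over the table alone, 19 with the table's own prior, 0 with the replicate block, 0 over replicates 1 to 3 with no block, and 0 to 12 with 1 sample left out. Centring each column on its median moved the difference of Cyp2c29 from -1.18 to -1.39 and that of Cyp2c70 from -1.57 to -1.79. The excess of HFD replicate 3 over the other HFD arrays was 0.77 with median scaling, 0.77 with normexp and 0.76 on the table's scale, the last chosen after seeing the data. No value here tests the scale of the chow columns.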

Other observations

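Among other Cyp2c genes, 4 had probes on the array and none was in the table, so they have HFD levels only. Cyp2c67 and Cyp2c68, which neighbour each other in the cluster, were detected above background on all 3 HFD arrays. Cyp2c68 had log2 levels of 4.35, 4.40 and 4.83 relative to the 75th percentile in HFD replicates 1, 2 and 3. The 2 probes of Cyp2c67 had 4.87, 4.91 and 5.52, and 4.88, 4.90 and 5.30. HFD replicates 1 and 2 were thus within 0.1 of each other for these 3 probes on this scale. Between the same arrays the Cyp2c50 probe differed by 0.86 and the Cyp2c70 probe by less, at 4.32 and 4.66. On the scale of the deposited values these 3 probes were higher in HFD replicate 1 than in HFD replicate 2. There the Cyp2c67 probes had 14.67 against 14.53 and 14.68 against 14.52, so the closeness depends on the scaling. Cyp2c65 and Cyp2c66, known mainly from the intestine, were well above background on 1 and 2 of the 3 HFD arrays.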
